A study of Homo sapiens with 5 samples.

Results

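DHRS2 and 9 related genes were followed through 5 nanopore cDNA libraries made from lung adenocarcinoma RNA. All but DHRS4-AS1, a long noncoding RNA, belong to the short-chain dehydrogenase/reductase family. The members were chosen by name: DHRS2, DHRS4, DHRS4L2, DHRS4-AS1, DHRS1, DHRS3, DHRS7, DHRS7B, DHRS9 and DHRSX. They make up 10 of the 61220 genes with a listed transcript, and 9 of the 10, all but DHRS9, were deep enough to be fitted among the 13492 genes tested. The set was proposed with the level of DHRS2 in these libraries already seen, so the DHRS2 levels are given as a description without a test. GENCODE v44 assigns 101 transcripts to the 10 genes. Of these, 96 were listed in the tables and 73 had at least 1 read.

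The RNA came from NCI-H1975 and HCC827, established lung adenocarcinoma lines grown separately in RPMI medium with fetal calf serum. The labels assign sequins, which are synthetic spike-in RNAs, to both, with NCI-H1975 receiving mix A and HCC827 mix B. No drug or genetic change is named for either line. The RNA preparation called replicate 1 of each line was used for every mixture, so that HCC827 supplied 0, 25, 50, 75 or 100% of the RNA mass. Libraries are named by their NCI-H1975 to HCC827 ratio, and 75:25 is thus the one with 25% HCC827. Each ratio had 1 library, so the series describes 1 preparation of each line. A p-value below measures only how far single libraries lie from a line that is straight in log2 level. Mixing is straight in the level itself, so bending on the log2 scale counts as scatter too. Library totals ran from 2932250 to 4058751 reads. The mitochondrial share of reads rose from 5.64% in the 100:0 library to 8.85% in the 0:100 library, and the read-weighted mean transcript length fell from 2579 to 2180 bases. Both move with every difference below, and their part in it was not tested. Sequin reads numbered 5475, 4678, 2830, 1269 and 0 from 100:0 to 0:100, and the 0 in pure HCC827 goes against the label of mix B there. The 5 epithelial markers checked had reads in every library, and PTPRC and CD3E of blood cells, HBA1 and HBB of red cells and DCN of fibroblasts had none in any.

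Short-chain dehydrogenases/reductases are NAD(H)- or NADP(H)-dependent enzymes built on a Rossmann fold, with a catalytic tyrosine and lysine. They interconvert alcohols with aldehydes or ketones, and their substrates include steroids, retinoids, lipids and foreign carbonyl compounds. Several DHRS proteins reduce retinal to retinol, which keeps it from being oxidised to retinoic acid. DHRS2, also called HEP27, reduces dicarbonyl compounds and has been studied as a protein that binds the p53 regulator MDM2.

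DHRS2, DHRS4 and DHRS4L2 lie in the same orientation on the long arm of chromosome 14 and derive from a common gene. DHRS2 occupies chr14:23630115-23645639 on the plus strand, DHRS4 chr14:23953734-23969279 and DHRS4L2 chr14:23969874-24006408 (GENCODE v44, GRCh38). A coding exon of 178 bases is found in all 3 genes and is shown 5′ to 3′ because it is where DHRS2 is closest to its relatives among the 3 coding exons of equal length. Capitals mark bases that differ from DHRS4. The exon lies at chr14:23955035-23955212 in DHRS4, chr14:23990182-23990359 in DHRS4L2 and chr14:23639179-23639356 in DHRS2, all on the plus strand.
DHRS4: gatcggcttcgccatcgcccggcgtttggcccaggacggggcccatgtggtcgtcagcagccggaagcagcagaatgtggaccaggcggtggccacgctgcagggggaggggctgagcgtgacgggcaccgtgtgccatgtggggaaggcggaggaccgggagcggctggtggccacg
DHRS4L2: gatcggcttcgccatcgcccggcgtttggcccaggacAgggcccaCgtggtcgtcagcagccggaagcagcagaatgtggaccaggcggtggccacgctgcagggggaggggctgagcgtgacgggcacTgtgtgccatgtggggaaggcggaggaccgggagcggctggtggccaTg
DHRS2: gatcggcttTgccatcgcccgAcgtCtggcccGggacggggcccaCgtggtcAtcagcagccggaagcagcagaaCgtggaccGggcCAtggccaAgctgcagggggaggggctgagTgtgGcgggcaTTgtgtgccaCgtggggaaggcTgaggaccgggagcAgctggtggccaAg

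DHRS4L2 differed from DHRS4 at 4 of these bases and DHRS2 differed from DHRS4 at 19. A second shared coding exon, of 102 bases, shows how far DHRS2 has moved away from the pair. It lies at chr14:23959902-23960003 in DHRS4, chr14:23995032-23995133 in DHRS4L2 and chr14:23639794-23639895 in DHRS2, on the plus strand, with capitals again marking differences from DHRS4.
DHRS4: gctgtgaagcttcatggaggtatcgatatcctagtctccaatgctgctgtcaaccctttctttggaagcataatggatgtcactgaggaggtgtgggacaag
DHRS4L2: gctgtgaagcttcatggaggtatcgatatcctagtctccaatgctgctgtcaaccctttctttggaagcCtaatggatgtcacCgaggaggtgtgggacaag
DHRS2: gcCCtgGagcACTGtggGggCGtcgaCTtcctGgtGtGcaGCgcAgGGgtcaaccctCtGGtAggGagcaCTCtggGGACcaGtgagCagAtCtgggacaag

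Here DHRS4L2 differed at 2 bases and DHRS2 at 36, an identity of 64.7% between DHRS2 and DHRS4. Over the aligned bases of the transcripts, gaps left out, DHRS4-201 and DHRS4L2-201 were 98.2% identical, and they shared an unbroken run of 262 bases. DHRS2-201 and DHRS4-201 were 70.7% identical over 1173 aligned bases, or 46.9% with the 594 gap positions counted, and their longest shared run was 22 bases. Reads of DHRS4 and DHRS4L2 can therefore be divided in part by the counting, and each of these 2 counts is uncertain.

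DHRS2 was abundant in NCI-H1975 and nearly absent from HCC827. It had 4112 reads in the 100:0 library, 3763 at 75:25, 2480 at 50:50, 1095 at 25:75 and 26 at 0:100. After scaling by the trimmed mean of M-values (TMM), these were 1229, 885, 646, 388 and 9.81 counts per 1000000 reads (CPM). The level fell at each step of the series. The last step, from 25:75 to 0:100, held the largest proportional drop, which mixing fixes for a gene nearly absent from HCC827. The NCI-H1975 level was 125-fold the HCC827 level (95% counting interval 85.4 to 192). Intervals here and below cover counting error only, since reads from PCR without molecular identifiers are not independent molecules. The 9.81 CPM in HCC827 had an interval of 6.41 to 14.4 CPM, so the few HCC827 reads set the width of the fold interval. Ranked by CPM among all genes, DHRS2 held rank 92 at 100:0 and rank 9002 at 0:100.

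**Figure D1:**
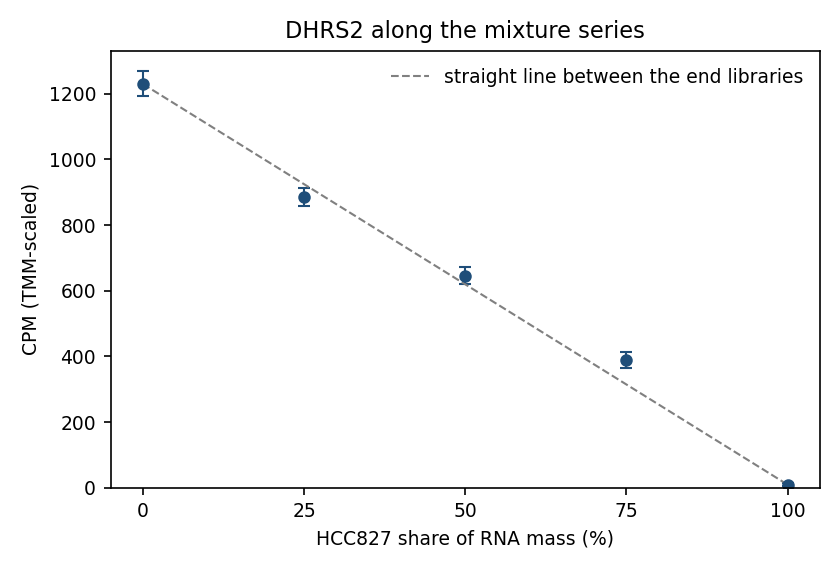
DHRS2 level in TMM-scaled CPM (vertical axis) against the HCC827 share of RNA mass in percent (horizontal axis). Points are single libraries with exact 95% Poisson intervals, and the dashed line joins the 2 pure libraries; the 25:75 point, at 388 CPM, lies above the line.

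With TMM scaling, the inner libraries stood close to a straight line drawn between the pure ones, as the plot of DHRS2 by mixture shows. The measured level was 0.957 of the line at 75:25 (95% interval 0.916 to 1.00), 1.04 at 50:50 (0.992 to 1.10) and 1.23 at 25:75 (1.15 to 1.32), with the counting error of both pure libraries included. On this TMM scale the first 2 intervals reach the line, and the 25:75 library lay above it beyond counting error. As a plain share of gene reads, DHRS2 held 0.143, 0.0942, 0.0649, 0.0361 and 0.000851% from 100:0 to 0:100. By that share 25:75 lay close to its line and 75:25 and 50:50 lay below, so these positions depend on the scaling. For comparison, again with TMM, 12 genes had at least 1000 reads over the series and a level over 16-fold lower in HCC827, DHRS2 among them. This group was drawn up after the DHRS2 values were seen. Its median ratios to the line were 0.974, 1.03 and 1.12, and at 25:75 the middle 50% of the group ran from 1.06 to 1.20, and DHRS2 lay above that range.

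Fibroblast markers moved with DHRS2 along the series. The 3 markers on that list summed to 188 CPM in the 100:0 library, 141 at 75:25, 106 at 50:50, 62.4 at 25:75 and 7.17 at 0:100. COL1A1 carried most of this, with 532 reads falling to 19, while DCN had no read in any library. The 4 blood cell markers summed to between 0 and 19 reads per library. The 5 epithelial markers summed to 3527 CPM at 100:0 and 11153 CPM at 0:100, carried by KRT8, KRT18 and KRT19. CDH1 went from 94.8 to 147 CPM, while EPCAM stood at 381 and 377 CPM. The 3 lung epithelial markers summed to 44.2 CPM at 100:0 and 377 CPM at 0:100, carried by NKX2-1 and NAPSA. The part of these genes in the DHRS2 difference was not tested.

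The 5 genes whose profile over the 5 libraries was most like that of DHRS2 were VIM, MT1E, S100A2, SNHG5 and CAVIN1. Likeness was the Euclidean distance between log2(CPM + 1) values over the 5 libraries, among 11015 genes with at least 100 reads. VIM, the intermediate filament protein of mesenchymal cells, was nearest at a distance of 2.22, with 1144, 848, 635, 357 and 49.0 CPM. MT1E, a metallothionein that binds zinc and copper, was next at 2.32, with 905, 649, 483, 256 and 1.51 CPM. VIM matched DHRS2 more closely in the inner libraries, whereas MT1E was the one that also dropped below DHRS2 in HCC827. S100A2, SNHG5 and CAVIN1 lay at distances of 2.88, 3.20 and 3.44. Mixing fixes much of the shape between the pure libraries, so likeness here reflects mainly the levels in those 2. The points share their libraries and depth, and no test was made.

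The division of DHRS2 reads among its transcripts was nearly the same in the 4 libraries that held NCI-H1975 RNA. Of its 10 annotated transcripts, 5 end at the same base, chr14:23645639. These 5 took 94.9% of the DHRS2 reads in the 100:0 library. Their counts there were 839 for DHRS2-201, 750 for DHRS2-202, 834 for DHRS2-208, 760 for DHRS2-209 and 720 for DHRS2-206. The 5 transcripts thus held similar counts although their listed lengths run from 927 to 5318 bases. DHRS2-201 is the MANE Select transcript with 9 exons, while DHRS2-206 is a single-exon retained intron model of 2595 bases. The listed length of DHRS2-201, 1705 bases, differs from its 1676 bases in GENCODE v44, so its ends in the release the authors used were not checked. DHRS2-207 and DHRS2-210 end 2 bases earlier, at chr14:23645637, and held 111 and 96 reads, together 5.03% of the gene. DHRS2-204 and DHRS2-205 had 3 reads each over the series, and DHRS2-203 had none.

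**Figure D2:**
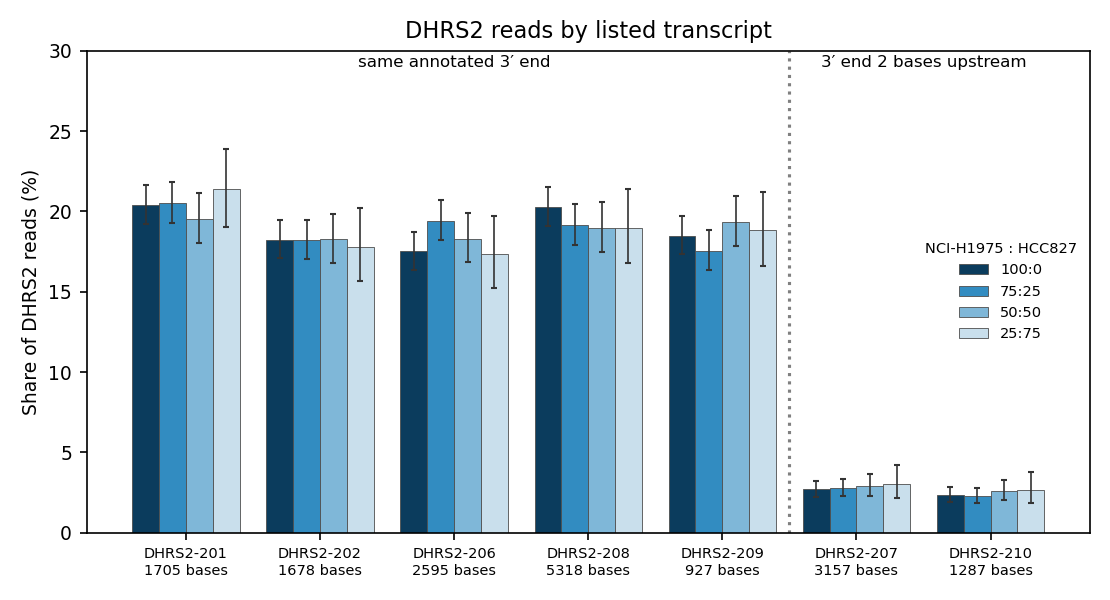
Share of DHRS2 reads in percent (vertical axis) given to each transcript with at least 10 reads (horizontal axis, with listed length), in the 4 libraries that held NCI-H1975 RNA. Bars start at 0, error bars are 95% Wilson intervals, and the dotted line separates the 5 transcripts that end at the same base from the 2 that end 2 bases earlier.

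The same split appeared in the mixtures. The 5 transcripts with the later end took 94.9% of DHRS2 reads at 75:25, 94.4% at 50:50, 94.3% at 25:75 and all 26 reads in the 0:100 library. Retained intron transcripts held 40.5% of DHRS2 reads in the 100:0 library (95% Wilson interval 39.0 to 42.0), 41.3% at 75:25, 40.2% at 50:50 and 39.4% at 25:75 (36.5 to 42.3). In the 0:100 library they held 9 of 26 reads, or 34.6% (19.4 to 53.8). With 9.81 CPM in HCC827 beside 1229 in NCI-H1975, nearly all DHRS2 reads of the mixtures came from the same NCI-H1975 preparation. Like shares from 100:0 to 25:75 therefore follow from the mixing. Only the 26 reads at 0:100 came from HCC827 alone, and their wide interval overlapped that of 100:0. The 5 transcripts with the later end held similar counts at 100:0 whatever their length. How reads were divided among them was not analysed, so these shares cannot decide whether isoform use differed between the lines.

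Near-equal counts for transcripts with a common 3′ end were frequent in the tables as a whole. Among pairs of transcripts of the same gene with at least 50 reads each, 83.4% of the 9955 pairs that share their annotated 3′ end had counts within 1.5-fold of each other. The share was 44.5% of 9919 pairs whose ends lie 1 to 10 bases apart and 33.0% of 22717 pairs further apart. The DHRS2 counts belong to the first kind within each end group. How many reads fitted a single DHRS2 transcript was not analysed here, so the isoform counts are given as deposited and not as levels of separate mRNAs.

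The 3 coding transcripts with the common end differ at the 3′ boundary of an internal exon, shown because a read that crosses it could tell them apart. Each line gives the last bases of that exon, from chr14:23644466 on the plus strand, followed by the first 30 bases of the next exon, chr14:23644827-23644856. Capitals mark the exon bases that DHRS2-209 lacks. The exon ends at chr14:23644495 in DHRS2-209, at chr14:23644543 in DHRS2-201 and at chr14:23644554 in DHRS2-202.
DHRS2-209: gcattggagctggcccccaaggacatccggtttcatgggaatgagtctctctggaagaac
DHRS2-201: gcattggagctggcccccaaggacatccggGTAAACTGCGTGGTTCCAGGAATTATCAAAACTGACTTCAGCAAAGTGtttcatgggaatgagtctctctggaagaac
DHRS2-202: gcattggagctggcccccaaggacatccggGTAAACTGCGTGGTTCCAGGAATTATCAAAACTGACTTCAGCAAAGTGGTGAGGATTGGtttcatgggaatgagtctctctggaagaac

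DHRS2-201 carries 48 bases more than DHRS2-209 at this boundary, and DHRS2-202 carries 59 bases more. Their shares of DHRS2 reads in the 100:0 library were 20.4% for DHRS2-201, 18.2% for DHRS2-202 and 18.5% for DHRS2-209. In the 25:75 library they were 21.4%, 17.8% and 18.8%, and each Wilson interval overlapped that of the 100:0 library. Both libraries drew nearly all their DHRS2 reads from the same NCI-H1975 preparation, so this overlap does not compare the lines.

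The other members were read from a fit over all genes: the change in log2 level per unit of HCC827 mass share (a share of 0 to 1, called the slope), by the edgeR quasi-likelihood test with Benjamini-Hochberg adjustment over all 13492 genes. A slope is not the log2 ratio between the pure libraries, and for DHRS3 the 2 values were 2.00 and 2.13. Of the 8 other members tested, 3 rose with HCC827 (DHRS1, DHRS3 and DHRS7B) and 1 fell (DHRS7). DHRS4, DHRS4L2, DHRS4-AS1 and DHRSX did not pass the adjusted threshold of 0.05. Over all genes, 45.7% were called, 23.5% as rising and 22.3% as falling, so 4 of 8 is near the background and is no property of these genes. CPM ran in order over all 5 libraries for DHRS1, DHRS3 and DHRS7 among them, as it did for 28.5% of all genes tested.

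**Figure D3:**
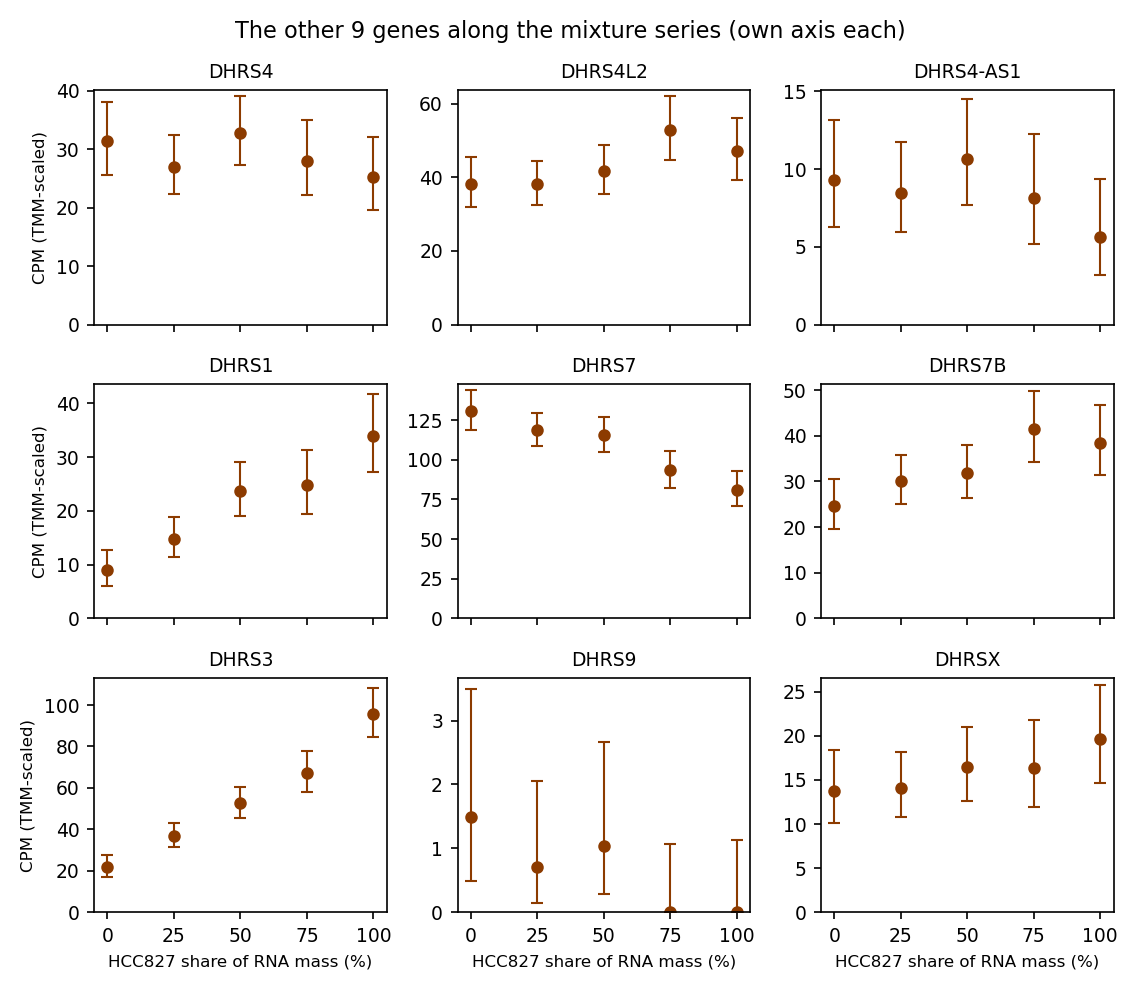
TMM-scaled CPM (vertical axes, each from 0 and on its own scale) of the other 9 genes against the HCC827 share of RNA mass in percent (horizontal axes). Points are single libraries with exact 95% Poisson intervals, or an upper limit of 3 reads where the count is 0; DHRS1 and DHRS3 climb from 8.97 to 34.0 and from 21.8 to 95.8 CPM, and DHRS7 declines from 131 to 81.1 CPM.

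Among the members that act on retinoids, DHRS3 changed most. DHRS3, a membrane enzyme that reduces all-trans-retinal and is induced by retinoic acid, had 73, 157, 202, 190 and 254 reads from 100:0 to 0:100. These were 21.8, 36.9, 52.6, 67.4 and 95.8 CPM, rising at every step. HCC827 held 4.39-fold the NCI-H1975 level (3.37 to 5.78), and the slope was 2.00 ± 0.17 (SE; edgeR adjusted p = 4.66e-06). A single transcript, DHRS3-204, took 874 of the 876 DHRS3 reads. DHRS9, which oxidises retinol and 3-alpha-hydroxysteroids, had 5, 3, 4, 0 and 0 reads and was too low to fit. A count of 0 allows up to 3 reads, and no difference between the lines was detectable for DHRS9 at this depth.

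DHRS4, a peroxisomal NADPH-dependent reductase of carbonyl compounds and retinal, did not pass the test. It had 105, 115, 126, 79 and 67 reads, or 31.4, 27.0, 32.8, 28.0 and 25.3 CPM, without order along the series. Its slope was -0.21 ± 0.22 (edgeR adjusted p = 0.467). DHRS4L2, its neighbouring copy, had 128, 162, 160, 149 and 125 reads, or 38.3, 38.1, 41.7, 52.8 and 47.2 CPM. The 2 libraries richest in HCC827 were the highest, but the slope of 0.44 ± 0.19 did not pass the threshold (edgeR adjusted p = 0.0716).

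Because reads of this pair may be divided by the counting, their sum was also fitted, an analysis added after seeing the data. DHRS4 and DHRS4L2 together had 233, 277, 286, 228 and 192 reads, or 69.7, 65.1, 74.5, 80.9 and 72.4 CPM. The slope of the sum was 0.18 ± 0.15 (edgeR adjusted p = 0.358), opposite in sign to that of DHRS4 alone. Scaling by library totals alone moved DHRS4 past the threshold, with a slope of -0.62 (edgeR adjusted p = 0.0334), in a setting that called 51.3% of all genes.

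DHRS4-AS1, a long noncoding RNA transcribed from the opposite strand, spans all of DHRS4 and DHRS4L2. It had 31, 36, 41, 23 and 15 reads, or 9.27, 8.46, 10.7, 8.16 and 5.66 CPM. The 0:100 library was the lowest, but its interval overlapped those of the others in the plot of the 9 genes, and the slope was -0.49 ± 0.41 (edgeR adjusted p = 0.357). The use of strand in counting is not given in the sources used here, so reads from exon bases shared by both strands cannot be told apart. Among transcripts with reads, such bases numbered 241 with DHRS4 and 290 with DHRS4L2, or 2.85% and 3.43% of the exon bases of DHRS4-AS1. The other genes that overlap DHRS4-AS1, DHRS4L1 among them, had 0 to 26 reads each.

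DHRS1, an oxidoreductase of the endoplasmic reticulum, rose with HCC827. Its reads were 30, 63, 91, 70 and 90, or 8.97, 14.8, 23.7, 24.8 and 34.0 CPM. The 0:100 level was 3.79-fold the 100:0 level (2.48 to 5.93), and the slope was 1.73 ± 0.28 (edgeR adjusted p = 2.72e-04). DHRS1 lies 645 kb from DHRS2 on the same chromosome, at chr14:24290598-24299780 on the minus strand. It overlaps a lncRNA on the other strand, ENSG00000288044, which had 112 reads against 344 for DHRS1.

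DHRS1 reads were spread over 9 transcripts. The MANE Select transcript DHRS1-201, with 9 exons, had 81 reads over the series, and the other 3 that share its 3′ end had 52 to 65. DHRS1-203, a retained intron model at the 5′ end of the gene, had 9, 7, 7, 5 and 8 reads while the gene as a whole rose. Its share of DHRS1 reads was 30.0% at 100:0 (Wilson interval 16.7 to 47.9) and 8.89% at 0:100 (4.57 to 16.6). The 2 intervals lie just apart. This transcript was singled out after its values were seen and was too low for the usage test.

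DHRS7, a reductase of the endoplasmic reticulum membrane that acts on steroids and retinal, was the only other member that fell among the 8 tested. It had 438, 504, 444, 263 and 215 reads, or 131, 118, 116, 93.3 and 81.1 CPM. The NCI-H1975 level was 1.61-fold that of HCC827 (1.37 to 1.91), with a slope of -0.68 ± 0.13 (edgeR adjusted p = 0.00127). The gene spans of DHRS7 and of PCNX4 on the opposite strand overlap by 25015 bases, and PCNX4 had 1036 reads against 1864 for DHRS7. When the 2 libraries richest in NCI-H1975 were compared with the 2 richest in HCC827, the DHRS7 call was lost (edgeR adjusted p = 0.0613), at a size of -0.69 per unit of HCC827 share.

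DHRS7 reads fell mainly on DHRS7-209 and DHRS7-201, whose 3′ ends lie 1 base apart and whose listed lengths are 1956 and 2322 bases. They held 855 and 857 reads over the series. In the 100:0 library DHRS7-209 took 45.0% of the gene and in the 0:100 library 40.9%. Unlike the DHRS2 transcripts with ends 2 bases apart, this pair had almost equal counts.

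DHRS7B, a peroxisomal membrane enzyme that completes an early step of ether lipid synthesis, had 82, 128, 122, 117 and 102 reads, or 24.5, 30.1, 31.8, 41.5 and 38.5 CPM. The 0:100 level was 1.57-fold the 100:0 level (1.16 to 2.13), and the slope of 0.70 ± 0.21 passed the threshold (edgeR adjusted p = 0.0144). This was the weakest of the 4 calls by adjusted p. It was lost with library totals (slope 0.29, edgeR adjusted p = 0.256), in the comparison of 2 against 2 libraries (0.73 per unit of HCC827 share, adjusted p = 0.0895) and without the 100:0 library (0.59, adjusted p = 0.112).

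DHRSX, which takes part in the synthesis of dolichol, had 46, 60, 63, 46 and 52 reads, or 13.8, 14.1, 16.4, 16.3 and 19.6 CPM. Its slope of 0.50 ± 0.27 did not pass the threshold (edgeR adjusted p = 0.144). The gene lies in the pseudoautosomal region shared by the X and Y chromosomes, its identifiers were listed in duplicate and the copies were summed. With the first copies alone the slope was 0.20 (edgeR adjusted p = 0.696), and with library totals it was 0.09 (adjusted p = 0.801). DHRSX overlaps ZBED1 on the same strand, and ZBED1 had 275 reads against 267. DHRSX-201 held 240 of them.

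The order of the members by level per length was compared within each pure library. Reads were divided by the listed length of each transcript and scaled to 1000000 per library, written TPM. For 4 member transcripts the listed length was not that of GENCODE v44. For DHRS7B-202 it was 2175 bases against 1253, so the TPM of DHRS7B depends on which is used. In the 100:0 library DHRS2 stood at 920 TPM, followed by DHRS7 at 91.6, DHRS4 at 41.4, DHRS4L2 at 40.3, DHRS7B at 26.9, DHRS1 at 14.7, DHRS3 at 13.4, DHRSX at 12.1, DHRS4-AS1 at 4.41 and DHRS9 at 1.27. Within this order DHRS4 and DHRS4L2 overlapped in their counting intervals, as did DHRS1, DHRS3 and DHRSX. In the 0:100 library the top 6 were DHRS3 at 36.7 TPM, DHRS7 at 36.6, DHRS1 at 32.8, DHRS4L2 at 31.4, DHRS7B at 29.4 and DHRS4 at 20.1, each overlapping the next. DHRSX at 7.69 and DHRS2 at 4.95 TPM overlapped below them.

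DHRS2 therefore passed from the most abundant of the 10 genes to the 8th. It held 81.4% of all reads of the 10 genes in the 100:0 library, 75.4% at 75:25, 66.4% at 50:50, 53.9% at 25:75 and 2.75% at 0:100. The TPM of DHRS2 and of the other genes depends on how reads were divided among transcripts of unequal length. Divided instead by the length of the MANE Select transcript alone, DHRS2 stood at 721 CPM per kb and DHRS7 at 66.9 in the 100:0 library, and at 5.75 and 41.5 in the 0:100 library.

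Isoform usage along the series was tested by transcript slopes within each gene (edgeR diffSpliceDGE, Simes). Of the 5 members that could be tested, DHRS1, DHRS4, DHRS4L2, DHRS7 and DHRS7B, none was called, beside 0.402% of 7455 genes overall. At an unadjusted p under 0.05 the count was also 0, as it was by the gene-level F test. The unadjusted p-values ran from 0.506 to 0.916 (edgeR Simes). At so low an overall share, 0 of 5 is near the background. The test used the deposited counts, whose division among transcripts was not analysed, so it cannot show that isoform use was alike. The shares of DHRS2 transcripts are given above as a description only.

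With TMM scaling, none of the genes tested around DHRS2 passed the test in its direction. Besides the members DHRS4, DHRS4L2 and DHRS4-AS1, 54 other genes were listed within 500 kb of DHRS2. Of these, 15 were tested, 9 rose with HCC827 and 0 fell, beside 23.5% and 22.3% of all genes. The slopes of the 15 were all above 0, so 0 fell at an unadjusted p under 0.05 too, and DESeq2 called 8 rising and 0 falling. By the 5 largest slopes, those called were EMC9, a subunit of the membrane protein insertion complex (2.25), AP1G2, an adaptor of vesicle transport (1.51), PSME1, a proteasome activator subunit (1.43), ZFHX2-AS1, an antisense RNA (1.43), and THTPA, a thiamine triphosphatase (1.26). AP1G2, 62.0 kb upstream of DHRS2, had 20.6, 26.1, 31.3, 47.5 and 56.2 CPM from 100:0 to 0:100. It rose at every step while DHRS2 fell.

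**Figure D4:**
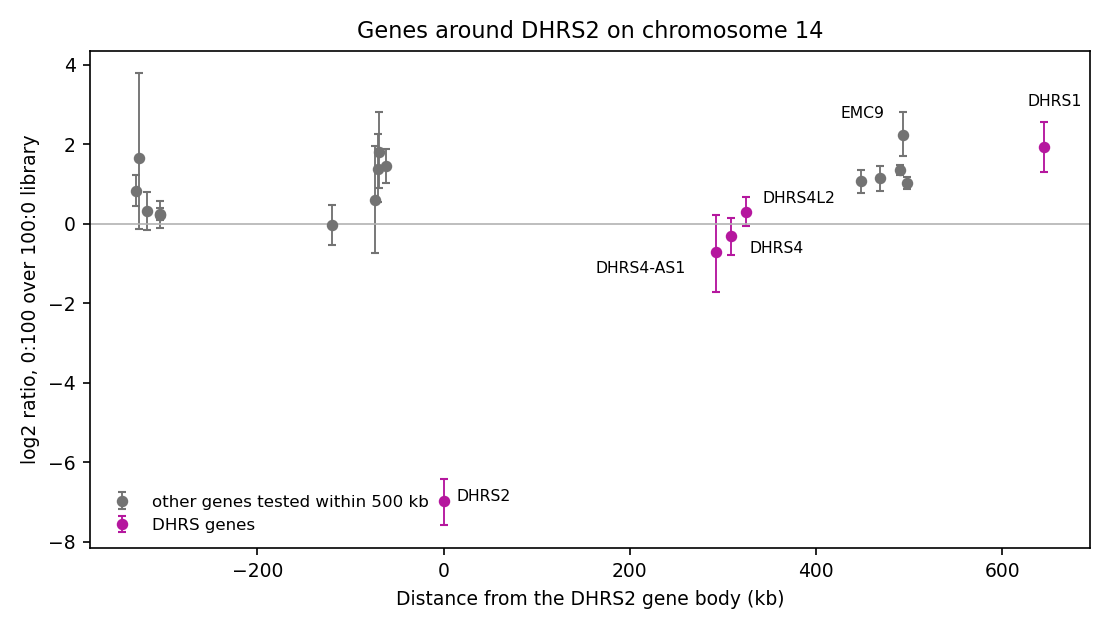
Log2 ratio of the 0:100 over the 100:0 library (vertical axis) against distance from the DHRS2 gene body in kb (horizontal axis), for the 15 other genes tested within 500 kb (grey) and the DHRS genes of the region (purple). Bars are exact 95% counting intervals. With TMM scaling, DHRS2 lies at -6.97 and the 15 other genes at -0.03 or above.

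In the plot of the locus, which uses TMM scaling, 14 of the 15 neighbours had a higher level in the 0:100 than in the 100:0 library. For 10 of them the counting interval stayed above 0. The median log2 ratio of the 15 was 1.07. Of the members in the window, DHRS4-AS1 stood at -0.71 and DHRS4 at -0.31, on the side of DHRS2, and DHRS4L2 at 0.30, each with a counting interval that holds 0. NGDN, 120 kb upstream, was the exception at -0.03, with 24.2 and 23.8 CPM in the pure libraries. Some of these genes overlap each other, such as EMC9 and PSME1, and their counts are then not independent. With library totals alone, 7 of the 15 rose and 0 fell, beside 13.4% of all genes rising. The member DHRS4, inside the window, was then called as falling like DHRS2 (slope -0.62, edgeR adjusted p = 0.0334). That scaling also lowers every log2 ratio here by the same amount, with DHRS2 at -7.39 in place of -6.97. The ratios of BCL2L2 (0.32), PABPN1 (0.24) and BCL2L2-PABPN1 (0.23) then fall below 0, so the count of neighbours above 0 depends on the scaling.

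The wider family gives the other short-chain dehydrogenases of these cells. Of 58 genes on that list, 43 were tested, 14 rose and 6 fell, or 46.5% called beside 45.7% of all genes. The median slope was 0.39, beside -0.03 for all genes. With library totals alone 9 rose and 13 fell, and the medians were -0.03 for the list and -0.45 for all genes. The sign of the list median thus turned with the scaling, while it stayed above the median of all genes in both. HPGD, which inactivates prostaglandins, had the steepest slope (3.24) and went from 4.19 to 116 CPM. It was followed by HSD17B8 of mitochondrial fatty acid synthesis (2.67), RDH10, which oxidises retinol (12.3 to 64.1 CPM), BDH1 of ketone body metabolism (1.78) and FASN, the fatty acid synthase (1.73). Among other DHRS-named genes, DHRS11, DHRS12 and DHRS13 had slopes of 1.10, 1.49 and 0.18 and did not pass (edgeR adjusted p = 0.0551, 0.0700 and 0.795), and DHRS4L1 and DHRS7C were too low to fit.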

How the data were processed

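The deposited tables hold 1 estimated count of reads per transcript and library, with a listed length and no scaling by the authors. Per the submitters' processing notes, minimap2 2.24, Salmon 1.9.0 and GRCh38 were used. The annotation release, the use of strand and the handling of shared reads are not given in the sources used here. Counts were rounded (2 values were not whole), repeated identifiers (161) were summed, and 224076 of 227751 human transcripts were paired with genes through GENCODE v44.

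Slopes on the HCC827 mass share were fitted with the edgeR 4.0.16 quasi-likelihood test (R 4.3.3; TMM; at least 10 reads in at least 2 libraries; Benjamini-Hochberg adjustment over all genes), with DESeq2 1.42.0 as an alternative. The code was tested on simulated data. Members and lists were chosen with earlier results of these data known. From the wider family, the retinoid list and the genes within 500 kb, the 5 called genes with the largest slopes were named, plus DHRS-named genes. TMM placed the median slope of all genes at -0.03, and library totals alone placed it at -0.45, with 26.0% of calls rising instead of 51.3%.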

Additional observations from a re-analysis of the deposited data

How the results depend on the processing

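No paired analysis was possible because each ratio had 1 library. The 4 calls among the members other than DHRS2 became 2 (DHRS1 and DHRS3) when 2 libraries were compared with 2, and were 3 to 4 with a library left out, 3 without the 100:0 library. In the wider family 20 calls became 8 in the comparison of 2 against 2, and 12 to 19 with a library left out, 12 without the 0:100 library. On the retinoid list 9 calls became 2 in the comparison of 2 against 2, and 5 to 9 with a library left out, 5 without the 0:100 library. Each of these fits used 4 libraries, and the cause was not tested further. Calls among the genes near DHRS2 stayed between 7 and 9 under the 13 alternatives tried. No member was called for isoform usage under any of 7 alternatives.

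The sum of DHRS4 and DHRS4L2 had a slope of 0.18, beside -0.21 for DHRS4 and 0.44 for DHRS4L2 alone. Library totals alone gave -0.62 for DHRS4 and 0.29 for DHRS7B, and log2 ratios between the pure libraries of -0.12 for DHRS4L2, 1.72 for DHRS3, -1.11 for DHRS7 and -7.39 for DHRS2. DHRS1 and DHRS3 kept their direction and call under the 13 alternatives. The 26 DHRS2 reads in HCC827, and the 0 to 5 reads of DHRS9, limit what depth can show.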

Other observations

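Genes that handle retinoids outside the DHRS family moved in both directions between the lines. Of 30 genes on that list, 15 were tested, 6 rose with HCC827 and 3 fell, or 60.0% called beside 45.7% of all genes, with a median slope of -0.05. With library totals alone, 2 rose and 5 fell. ALDH1A3, which oxidises retinal to retinoic acid, went from 9.87 CPM in the 100:0 library through 59.2, 83.1 and 112 to 144 CPM at 0:100 (slope 2.69 ± 0.42, edgeR adjusted p = 2.46e-04). RDH10, which supplies retinal from retinol, went from 12.3 to 64.1 CPM. CYP26B1, which degrades retinoic acid, had 15, 14, 11, 2 and 1 reads (slope -2.86). RDH11, a retinal reductase, fell from 266 to 97.3 CPM (slope -1.33), and RETSAT, which saturates retinol, fell from 57.4 to 24.1 CPM (slope -1.13). RDH10 and RDH11 also belong to the wider short-chain dehydrogenase list, so the lists are not independent.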
